A study of Mus musculus with 20 samples.

Results

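9 genes of the cell division cycle, Mki67, Top2a, Ccnb1, Cdk1, Ccna2, Birc5, Bub1, Cenpf and Tpx2, were followed by their gene symbols through a table of read counts for the preoptic area of female mice. They are 9 of the 19269 genes in the table, and each has a row with a value for all 20 libraries. Each library came from a pool of preoptic punches from 3 to 4 mice, taken at day 21 (young) or between days 70 and 150 (adult, in diestrus). RNA was either immunoprecipitated for GFP-tagged ribosomes (IP, the pull-down) or kept as the depleted supernatant, which holds the rest of the punch. In GFP-positive mice a GnRH CRE allele removes the stop from a Floxed L10a-GFP allele, so that ribosomal protein L10a carries GFP in GnRH neurons. GFP-negative mice lack one or both alleles and give the background of the pull-down.

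The GFP-positive pool sequenced in both fractions was adult and carried GnRH CRE and Floxed L10a-GFP (1 IP and 1 supernatant library). Adult negative pools 1 and 2 were GnRH CRE only (2 IP and 2 supernatant libraries). Young negative pool 3 was Floxed L10a-GFP only, and numbers 1 and 2 of that group were wild type (3 IP and 3 supernatant libraries). Age and genotype therefore change together among the negative pools and cannot be told apart there. A further 4 supernatants came from pools of an earlier series, called prior pools here, all GnRH CRE x Floxed L10a-GFP, 2 adult (numbers 3 and 4) and 2 young (numbers 1 and 2). Each of these 4 RNAs was sequenced in a second set, together with the 6 new pools, and in a first set before it. Whether the mice of the prior pools had a prenatal treatment is not given in the sources used here. The series text names the GFP-positive supernatant in 2 ways, and the sample titles were followed. The other naming points to the library called adult negative supernatant 1 here. Statements that tell these 2 libraries apart, and the fits of negative IP over supernatant, depend on this choice. Library totals lay between 27745296 and 50517581 counts. Levels are given as CPM, a count over its library total on the usual scale, so that 3 counts, the limit that a count of 0 allows, equal 0.0594 to 0.108 CPM. Gnrh1 reached 1479 CPM in the GFP-positive IP, against 8.10 to 35.0 CPM in the 5 negative IP libraries. The 10 marker genes of the preoptic area and GnRH neurons had counts in all 10 second-set supernatants, with summed levels of 180 to 312 CPM in adult and 101 to 268 CPM in young pools.

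Cells that divide pass through DNA synthesis (S phase), a gap (G2) and mitosis (M). CDK1, the kinase encoded by Cdk1, drives entry into mitosis once it is bound to cyclin B1 (Ccnb1), and cyclin A2 (Ccna2) activates CDKs in S phase and G2. Top2a encodes the topoisomerase that untangles replicated chromosomes, and Mki67 encodes Ki-67, a protein that coats mitotic chromosomes and serves as the usual stain for cycling cells. Birc5 (survivin) belongs to the chromosomal passenger complex, Bub1 is a kinase of the spindle checkpoint, Cenpf is a protein of the kinetochore, and Tpx2 builds the spindle and activates Aurora A. Neurons leave the cycle before birth or soon after, while glial precursors, microglia and endothelial cells of the young brain can still divide. Many genes of this group are transcribed in G2 through CCAAT boxes, bound by NF-Y, and a CHR element, bound by the MuvB complexes.

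On GRCm38 the genes lie at chr7:135689784-135716361 (Mki67), chr11:98992943-99024189 (Top2a), chr13:100778650-100786570 (Ccnb1), chr10:69335146-69352938 (Cdk1) and chr3:36564865-36572150 (Ccna2), all on the minus strand. Bub1 (chr2:127801122-127831865) and Cenpf (chr1:189640606-189688086) are on the minus strand too, and Birc5 (chr11:117849251-117855743) and Tpx2 (chr2:152847964-152895321) are on the plus strand. The table has 1 row per gene, so isoforms are not told apart. The start regions of 5 genes are shown because they set the 3 members that fell with age (Ccnb1, Cdk1 and Top2a) beside 2 that were not called (Cenpf and Birc5). RefSeq promoters of GRCm38.p6, from 250 bases before to 50 bases after the start, were found for 7 of the 9 members, without Ccna2 and Tpx2. Capitals mark the CHR letters TTTGAA, the variant TTCGAA, which is its own reverse complement, and the CCAAT box, each on either strand (TTCAAA and ATTGG on the other); none of the marked letters overlap.
Ccnb1, chr13:100786437-100786736, minus strand: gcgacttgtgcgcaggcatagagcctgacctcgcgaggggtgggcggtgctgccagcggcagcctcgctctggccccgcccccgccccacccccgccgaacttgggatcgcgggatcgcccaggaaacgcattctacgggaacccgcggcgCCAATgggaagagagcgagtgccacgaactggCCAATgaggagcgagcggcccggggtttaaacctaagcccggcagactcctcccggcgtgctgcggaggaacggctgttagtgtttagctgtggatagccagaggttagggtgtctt
Cdk1, chr10:69352863-69353162, minus strand: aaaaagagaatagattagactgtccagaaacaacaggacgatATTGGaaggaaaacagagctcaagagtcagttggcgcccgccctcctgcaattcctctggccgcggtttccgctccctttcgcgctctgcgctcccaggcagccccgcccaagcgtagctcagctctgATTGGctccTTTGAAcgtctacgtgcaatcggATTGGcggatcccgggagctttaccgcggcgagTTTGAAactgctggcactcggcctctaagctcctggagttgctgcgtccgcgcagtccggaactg
Top2a, chr11:99024140-99024439, minus strand: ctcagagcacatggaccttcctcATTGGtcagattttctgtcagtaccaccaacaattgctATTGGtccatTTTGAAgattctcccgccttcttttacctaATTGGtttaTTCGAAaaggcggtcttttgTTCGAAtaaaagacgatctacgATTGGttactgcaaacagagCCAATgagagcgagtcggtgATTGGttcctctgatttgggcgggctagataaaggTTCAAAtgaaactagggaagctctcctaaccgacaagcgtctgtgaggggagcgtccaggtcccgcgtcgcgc
Cenpf, chr1:189688037-189688336, minus strand: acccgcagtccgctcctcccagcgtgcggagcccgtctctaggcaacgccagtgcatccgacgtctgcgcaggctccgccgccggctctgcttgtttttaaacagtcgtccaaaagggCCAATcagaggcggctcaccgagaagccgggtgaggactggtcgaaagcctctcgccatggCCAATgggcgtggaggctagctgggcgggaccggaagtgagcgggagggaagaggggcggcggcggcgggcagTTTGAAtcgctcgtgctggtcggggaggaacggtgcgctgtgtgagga
Birc5, chr11:117848987-117849286, plus strand: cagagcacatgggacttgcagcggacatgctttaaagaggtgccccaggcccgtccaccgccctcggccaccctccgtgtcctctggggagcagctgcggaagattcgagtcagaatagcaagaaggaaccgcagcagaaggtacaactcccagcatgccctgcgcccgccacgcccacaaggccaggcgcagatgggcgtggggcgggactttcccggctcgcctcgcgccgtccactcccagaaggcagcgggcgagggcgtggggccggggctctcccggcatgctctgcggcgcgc

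A CCAAT box was found in 6 of the 7 promoters, against 37.4% of 32851 promoters in the table. TTTGAA was found in 4 of the 7 (Mki67, Top2a, Cdk1 and Cenpf), against 17.9% of all promoters, and TTCGAA in 2 (Top2a and Bub1), against 1.56%. Top2a held 6 CCAAT boxes, while 3.37% of promoters held 3 or more. One of these CHR letters together with a CCAAT box was found in 5 members and in 7.52% of all promoters. Among the printed sequences, the Ccnb1 window held 2 CCAAT boxes and no CHR letters, and the Birc5 window held none of the motifs. Cenpf, which was not called, held a TTTGAA and 2 CCAAT boxes. A match describes the letters of the window and no binding was measured.

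The 9 genes were faint. Summed, they took 11.9 to 16.6 CPM in the 5 adult supernatants of the second set (14.3 ± 2.1, SD) and 13.7 to 19.5 CPM in the 5 young ones (16.6 ± 2.17). Ccna2 held the largest share of that sum, 46.3% to 59.0% in adult and 39.0% to 56.1% in young supernatants. Across all 20 libraries the total count ran from 37 reads for Bub1 and 301 for Top2a to 6339 for Ccna2. Bub1 had no count in 11 libraries, Cdk1 and Top2a had none in 4 each and Ccnb1 had none in 3, while Mki67, Ccna2, Birc5, Cenpf and Tpx2 had counts in all 20.

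Compared per length, as CPM per kilobase of the longest annotated transcript, the order of levels differed between the ages. Ccna2 stood first at both, with medians of 2.67 CPM per kb (range 2.05 to 3.22) in adult and 2.46 (2.2 to 2.59) in young supernatants. Birc5 came second, at 0.554 (0.438 to 0.800) in adult and 0.6 (0.532 to 1.00) in young supernatants. Its adult range overlapped that of Tpx2, next at 0.474 (0.307 to 0.531) in adult and 0.361 (0.245 to 0.438) in young supernatants. In adult supernatants Cenpf (0.132), Ccnb1 (0.0980), Cdk1 (0.0765), Top2a (0.0526) and Mki67 (0.0212) followed in this order, and the range of each overlapped that of the next. In young supernatants Ccnb1 (0.336) and Cdk1 (0.287) stood above Cenpf (0.133), Top2a (0.118) and Mki67 (0.0881), again with each range overlapping the next. Bub1 was last at both ages, at 0.00806 in adult and 0.00997 in young supernatants, with a range that overlapped that of Mki67.

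The first comparison set adult against young preoptic tissue in the second-set supernatants, with 1 library per pool and 5 pools per age. Ccnb1 and Cdk1, which encode a mitotic cyclin and its kinase, fell in the adult pools by 4.21-fold and 3.71-fold. Top2a, the topoisomerase of dividing cells, fell by 2.67-fold. Ccna2, Birc5, Cenpf, Tpx2 and Mki67 were not called in either direction, and Bub1 had too few counts to be tested. In these bulk punches, fewer cells of a type and less RNA per cell cannot be told apart.

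Cdk1 had 26 and 15 counts in adult negative supernatants 1 and 2, 4 in the adult GFP-positive supernatant, and 10 and 11 in adult prior pools 3 and 4. These equal 0.515, 0.458, 0.144, 0.276 and 0.335 CPM. In young negative supernatants 1 to 3 it had 35, 59 and 57 counts, and in young prior pools 1 and 2 it had 51 and 24, which equal 1.19, 1.5, 1.73, 1.26 and 0.693 CPM. Each adult pool was lower than each young pool, with the GFP-positive pool lowest and young prior pool 2 nearest to the adults. The mean was 0.345 ± 0.147 CPM in adult and 1.27 ± 0.389 CPM in young pools (SD, n = 5 each), a log2 fold change of -1.89 (SE 0.38, adjusted p = 0.00895 by edgeR's quasi-likelihood test over 15537 genes). The call held without any one of the 10 libraries (log2 fold change -2.04 to -1.68, highest adjusted p = 0.0295).

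Ccnb1, its cyclin partner at mitosis, had 19 and 8 counts in adult negative supernatants 1 and 2, 5 in the GFP-positive one, and 1 and 15 in adult prior pools 3 and 4 (0.376, 0.244, 0.180, 0.0276 and 0.456 CPM). Young negative supernatants 1 to 3 had 23, 60 and 62 counts, and young prior pools 1 and 2 had 34 and 18 (0.784, 1.53, 1.88, 0.837 and 0.519 CPM). The ages did not overlap, although adult prior pool 4 and young prior pool 2 lay close to each other. The means were 0.257 ± 0.168 CPM in adult and 1.11 ± 0.570 CPM in young pools, a log2 fold change of -2.07 (SE 0.53, edgeR adjusted p = 0.0279). The adjusted p stayed under 0.05 in 5 of the 10 fits that left out 1 library. It rose to 0.0717 without the GFP-positive supernatant, 0.0712 and 0.0702 without adult negative supernatants 1 and 2, 0.0664 without young negative supernatant 2 and 0.0637 without young prior pool 1. A processed pseudogene, Ccnb1-ps, is annotated and has no row in the table, so reads shared between the copies leave the Ccnb1 level uncertain.

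Top2a had 12 and 9 counts in adult negative supernatants 1 and 2, 10 in the GFP-positive one, and 6 and 10 in adult prior pools 3 and 4 (0.238, 0.275, 0.360, 0.166 and 0.304 CPM). In young negative supernatants 1 to 3 it had 14, 33 and 33 counts, and in young prior pools 1 and 2 it had 25 and 18 (0.477, 0.841, 1.00, 0.615 and 0.519 CPM). All 5 adult values lay below all 5 young values. Means of 0.268 ± 0.0730 CPM in adult and 0.691 ± 0.223 CPM in young pools gave a log2 fold change of -1.41 (SE 0.38, edgeR adjusted p = 0.0347). This call stood in 3 of the 10 fits without 1 library, with young negative supernatant 1, young prior pool 2 or adult prior pool 4 left out. The highest adjusted p, 0.106, came without adult negative supernatant 1, and without the others it was 0.0853 (young negative 2), 0.0688 (young negative 3), 0.0575 (GFP-positive), 0.0736 (adult negative 2), 0.0827 (young prior 1) and 0.0878 (adult prior 3). The log2 fold change of Top2a stayed between -1.57 and -1.29.

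Mki67 averaged 0.337 ± 0.252 CPM in adult and 0.802 ± 0.461 CPM in young pools (SD, n = 5 each), and the pools were scattered. It had 5 and 15 counts in adult negative supernatants 1 and 2, 20 in the GFP-positive one, and 7 in each adult prior pool (0.0990, 0.458, 0.721, 0.193 and 0.213 CPM). Young negative supernatants 1 to 3 had 16, 54 and 34 counts, and young prior pools 1 and 2 had 36 and 6 (0.546, 1.38, 1.03, 0.886 and 0.173 CPM). The ages overlapped, with young prior pool 2 below 4 of the 5 adult pools and the GFP-positive pool above 2 of the 5 young ones. The log2 fold change was -1.36 (SE 0.56, edgeR adjusted p = 0.144), and no fit without 1 library called it (adjusted p = 0.0805 to 0.376).

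Ccna2 had the smallest fitted age difference of the 8 members tested. It had 482 and 292 counts in adult negative supernatants 1 and 2, 169 in the GFP-positive one, and 287 and 230 in adult prior pools 3 and 4 (9.54, 8.91, 6.09, 7.92 and 7.0 CPM). Young negative supernatants 1 to 3 had 191, 298 and 234 counts, and young prior pools 1 and 2 had 296 and 266 (6.51, 7.59, 7.10, 7.29 and 7.68 CPM). The young values lay inside the adult range, and the means were 7.89 ± 1.40 CPM in adult and 7.23 ± 0.465 CPM in young pools (log2 fold change 0.07, SE 0.15, edgeR adjusted p = 0.816). Ccna2 shares 510 exonic nucleotides with Exosc9, an exosome subunit gene on the opposite strand that stood at 41.8 ± 4.64 CPM in adult and 34.8 ± 6.55 CPM in young pools. The sources used here do not say whether counting used strand, so reads of the shared exons cannot be assigned and the Ccna2 level is uncertain.

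The spindle and kinetochore members were not called. Birc5 ran from 1.46 to 2.67 CPM in adult (48 to 87 counts) and from 1.77 to 3.34 CPM in young pools (66 to 131 counts), with a log2 fold change of -0.28 (SE 0.23, edgeR adjusted p = 0.5). Cenpf ran from 0.730 to 1.66 CPM in adult (24 to 84 counts) and from 1.10 to 2.22 CPM in young pools (38 to 90 counts), with a log2 fold change of -0.45 (SE 0.30, adjusted p = 0.389). Tpx2 ran from 1.34 to 2.32 CPM in adult (40 to 107 counts) and from 1.07 to 1.91 CPM in young pools (37 to 68 counts), with a log2 fold change of 0.30 (SE 0.25, adjusted p = 0.514). Bub1 had 19 and 0 counts in adult negative supernatants 1 and 2, 0 in the GFP-positive one and 1 in each adult prior pool. In young negative supernatants 1 to 3 it had 1, 8 and 0 counts, and in young prior pools 1 and 2 it had 4 and 1. No age difference of Bub1 was detectable at this depth.

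**Figure D1:**
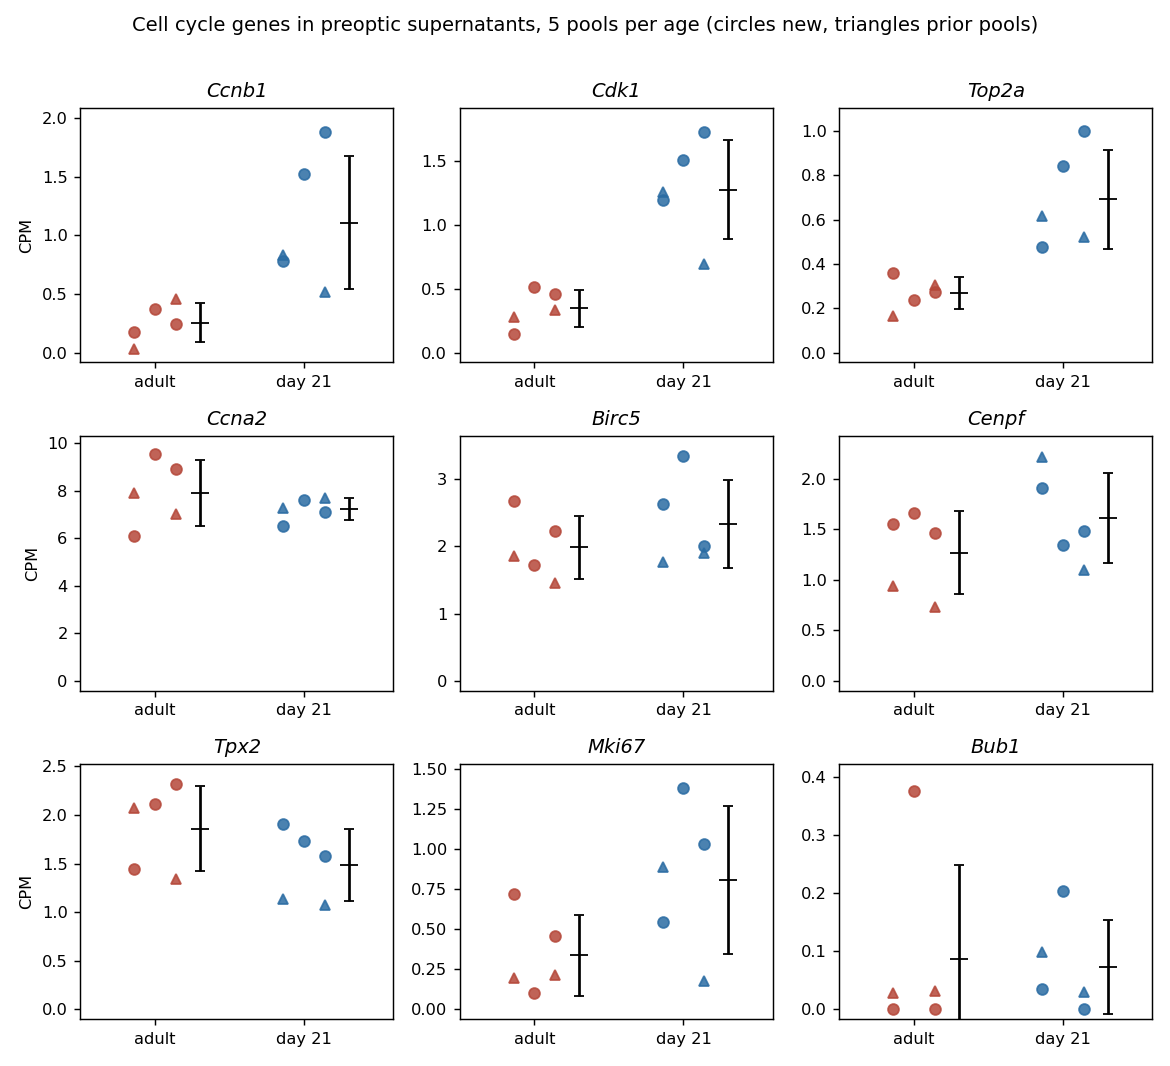
Level (CPM) of the 9 genes in the second-set supernatants, adult (red) left of day 21 (blue), 5 pools each, with the mean and SD beside the points; the lower bar of Bub1 is cut at the axis. Ccnb1, Cdk1 and Top2a show no overlap between the ages, and Ccna2 stands between 6.09 and 9.54 CPM in adult and between 6.51 and 7.68 CPM in young pools.

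In all, 3 of the 9 members fell and none rose, where 5.6% of the 15537 genes tested fell, 4.16% rose and 9.76% were called in either direction. The same 3 had adult values below all young values, as did 2.75% of the genes tested. The median log2 fold change was -0.91 over the 8 members tested and 0 over all genes. With library totals in place of the trimmed mean of M-values (TMM) scaling, 61.3% of all called genes were higher in adults, against 42.6% with TMM, and the 3 members remained lower. The summed level of Cdk1, Ccnb1 and Top2a was 0.469 to 1.13 CPM in adult and 1.73 to 4.61 CPM in young pools. That was 3.48% to 9.23% of the members' sum in adult and 12.7% to 25.9% in young pools. These 3 were picked by their calls in the same libraries, so the separation of their sum was fixed in advance. The sum and its share describe the size of the difference and add no support to it. Across the 10 libraries Ccnb1 varied with Top2a (Pearson r = 0.92) and with Cdk1 (r = 0.88), while Mki67 and Ccna2 had r = -0.48. These are descriptions of libraries that share age and depth.

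The age difference was also taken within each origin of pools, because the prior pools share 1 genotype label and the new pools do not. Of the 9 members, none was called in either, where 3.66% of 16206 genes were called in the new pools (3 against 3) and 0.358% in the prior pools (2 against 2). Cdk1 had log2 fold changes of -2.0 (SE 0.52, edgeR adjusted p = 0.0543) in new and -1.72 (SE 0.65, adjusted p = 0.332) in prior pools. Ccnb1 had -2.40 (SE 0.71, adjusted p = 0.0834) in new and -1.54 (SE 0.89, adjusted p = 0.543) in prior pools, and Top2a had -1.47 (SE 0.55, adjusted p = 0.163) in new and -1.31 (SE 0.69, adjusted p = 0.502) in prior pools. The prior-pool value of Ccnb1 was -0.61 without adult prior pool 3 and -4.52 without adult prior pool 4, and neither was called. Mki67 stood at -1.31 (SE 0.75) in new and -1.44 (SE 0.98) in prior pools, the second value being 0.19 without young prior pool 1. Cenpf had -0.08 (SE 0.37) in new and -1.04 (SE 0.46) in prior pools, a difference of 0.97 (SE 0.59, adjusted p = 0.999). Without young prior pool 1 the prior-pool value of Cenpf was -0.42. The difference between origins was called for no member, and for 0.00617% of genes overall.

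**Figure D2:**
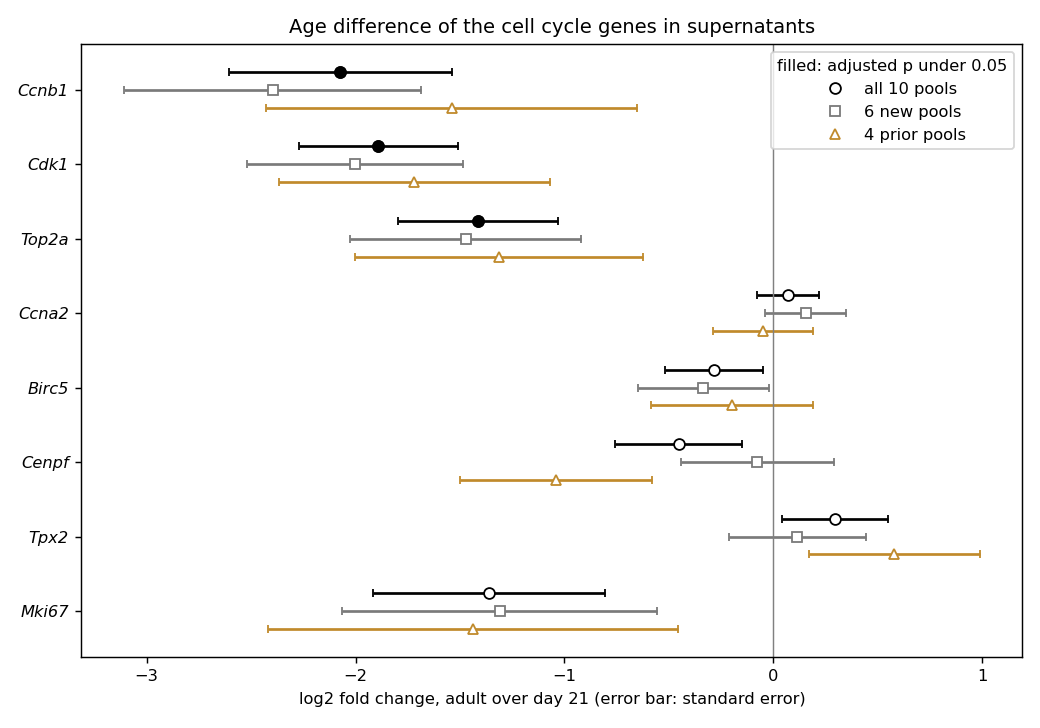
Log2 fold change of adult over day 21 supernatants with its standard error, for the 8 members tested, over all 10 pools, the 6 new pools and the 4 prior pools. Filled points, Ccnb1, Cdk1 and Top2a over all 10 pools, had an adjusted p under 0.05.

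The 4 prior RNAs, sequenced in both sets, show how well such low counts repeat. For Ccna2 and Birc5 the largest difference between the second and the first set of the same pool was 1.37-fold and 1.38-fold, for Cenpf 1.43-fold and for Tpx2 1.81-fold. It reached 2.24-fold for Top2a over the 3 pools with counts in both sets, 3.68-fold for Cdk1, 8.06-fold for Ccnb1 and 12-fold for Mki67. The Mki67 value comes from young prior pool 1, with 36 counts in the second and 3 in the first set. The Ccnb1 value comes from adult prior pool 3, with 1 count in the second and 9 in the first set. Of the 7 members tested with the pool as a block, none was called (edgeR), where 32.4% of 15573 genes were. The furthest from 0 were Cdk1 with a log2 fold change of 0.80 (SE 0.48, adjusted p = 0.228) and Ccnb1 with -0.72 (SE 0.57, adjusted p = 0.374).

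In the first-set libraries of the same pools the order of the ages was the same for the 3 genes. Cdk1 had 7 and 3 counts in adult pools 3 and 4 and 33 and 20 in young pools 1 and 2. Ccnb1 had 9 and 5 in adult and 57 and 59 in young pools, and Top2a had 3 and 0 in adult and 56 and 31 in young pools. These first-set libraries were also fitted alone, 2 adult against 2 young, an alternative added after the data were seen. The adult over young log2 fold changes in that fit were -2.29 for Cdk1, -2.93 for Ccnb1 and -4.68 for Top2a. None passed the test there (edgeR adjusted p = 0.360, 0.181 and 0.199), and the Top2a value rests on an adult library at 0.

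**Figure D3:**
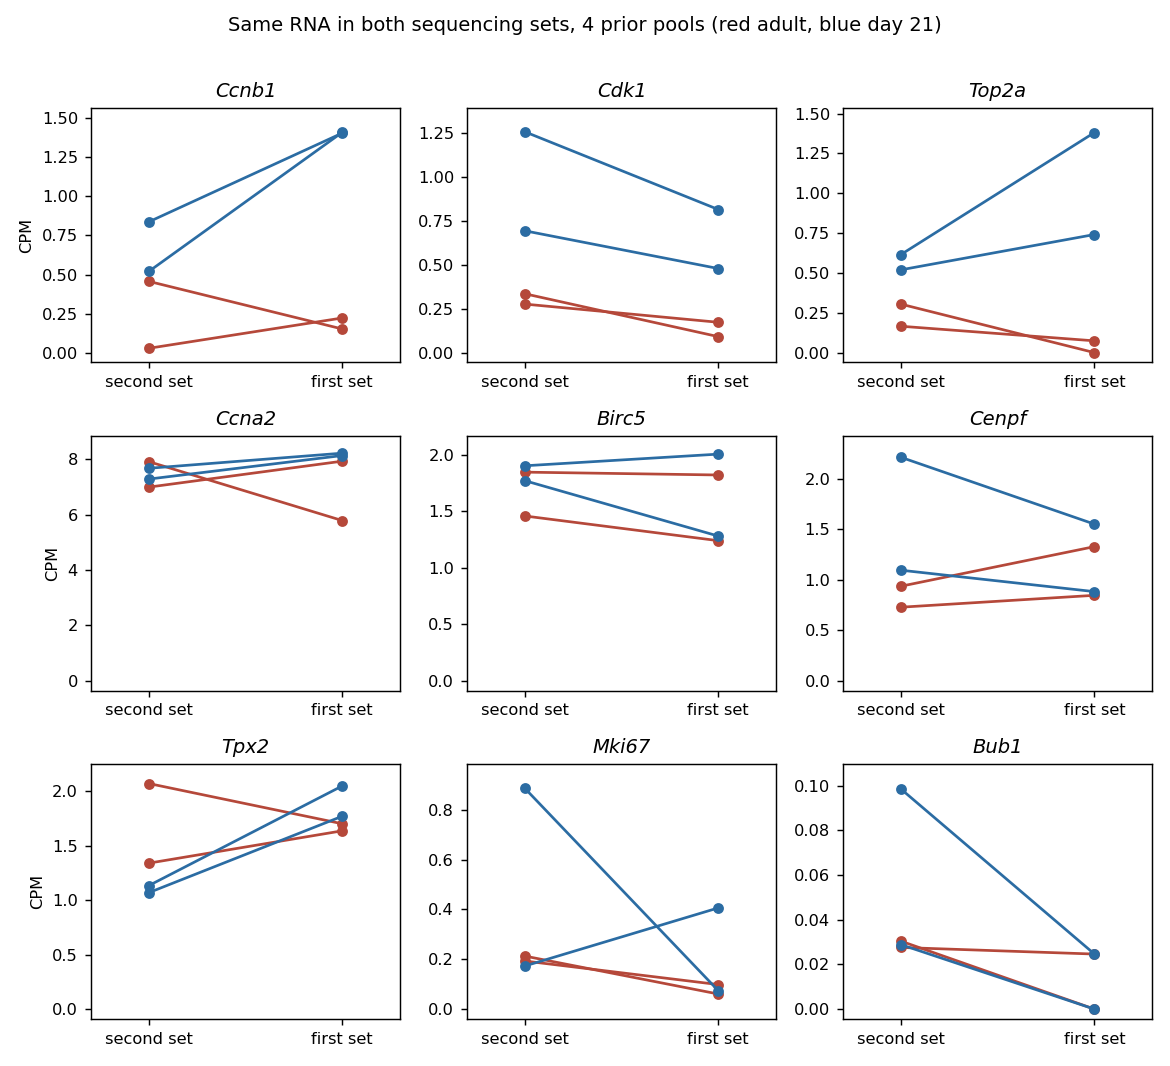
Level (CPM) of the 9 genes in the second and first sequencing set of the same 4 RNAs, joined by lines, adult in red and day 21 in blue. Ccna2 moved by at most 1.37-fold between the sets, and Mki67 by up to 12-fold.

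Genes that act with the members were read in the same 10 supernatants, where 5.6% of all 15537 genes tested fell and 4.16% rose. Of 46 other genes of G2 and mitosis, 35 were tested, 5 fell in adult pools and none rose, with a median log2 fold change of -0.52. Ube2c, the conjugating enzyme of the anaphase-promoting complex, stood at 0.928 ± 0.438 CPM in adult and 2.89 ± 1.18 CPM in young pools (log2 fold change -1.63, SE 0.34, edgeR adjusted p = 0.00991). Pbk, a mitotic kinase, stood at 0.443 ± 0.267 CPM in adult and 1.23 ± 0.429 CPM in young pools (-1.57, SE 0.35, adjusted p = 0.0148). Ccnb2, the second B-type cyclin, stood at 0.228 ± 0.121 CPM in adult and 0.812 ± 0.277 CPM in young pools (-1.88, SE 0.45, adjusted p = 0.0197). Aurkb, the kinase of the complex that holds survivin, had a log2 fold change of -2.56 (SE 0.70, adjusted p = 0.0361), and Spc25, a kinetochore subunit, had -1.12 (SE 0.31, adjusted p = 0.0355). In adult pools these 5 genes stood between 0.137 and 0.928 CPM on average.

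The S phase and licensing genes went both ways. Of 38 genes, 34 were tested, 3 fell and 1 rose, with a median log2 fold change of 0.08. Of all genes tested, 5.6% fell and 4.16% rose. Rrm2, a subunit of ribonucleotide reductase (-1.28, SE 0.28, edgeR adjusted p = 0.0141), and Tk1, thymidine kinase (-1.55, SE 0.43, adjusted p = 0.0369), fell. Uhrf1, which keeps DNA methylation after replication, fell too (-1.53, SE 0.44, edgeR adjusted p = 0.0457). Fen1, the flap endonuclease of replication and repair, rose to 27.5 ± 2.77 CPM in adult pools, against 20.2 ± 2.37 CPM in young pools (0.40, SE 0.11, adjusted p = 0.0394).

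Among the 6 cyclins and CDKs of G1, 3 fell and none rose. Cdk2 stood at 1.85 ± 0.555 CPM in adult and 3.49 ± 1.45 CPM in young pools (log2 fold change -1.01, SE 0.28, edgeR adjusted p = 0.0406). Cdk4 stood at 105 ± 6.66 CPM in adult and 123 ± 10.4 CPM in young pools (-0.28, SE 0.06, adjusted p = 0.0142), and Ccnd1 at 17.0 ± 3.43 CPM in adult and 23.4 ± 6.90 CPM in young pools (-0.48, SE 0.14, adjusted p = 0.0490). Cdk6, Ccnd2 and Ccnd3 had -0.91 (SE 0.42, adjusted p = 0.193), -0.23 (SE 0.18) and -0.02 (SE 0.12). Of the 9 CDK inhibitors and pocket proteins tested, which hold the cycle back, 1 fell and none rose. That gene was Cdkn1a (p21), at 26.8 ± 3.65 CPM in adult and 48.3 ± 10.1 CPM in young pools (-0.89, SE 0.13, adjusted p = 0.00109). Cdkn1b, Cdkn1c, Cdkn2b, Cdkn2c and Cdkn2d had log2 fold changes of -0.05, -0.52, -0.42, -0.24 and -0.18, and Rb1, Rbl1 and Rbl2 had -0.18, -0.10 and 0.22.

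None of the 8 regulators of CDK1 was called. The phosphatase genes Cdc25a, Cdc25b and Cdc25c had log2 fold changes of 0.03, 0.34 and -1.15 (SE 0.56 for the last, edgeR adjusted p = 0.220), and the inhibitory kinases Wee1 and Pkmyt1 had -0.12 and 0.22. Cks1b, Fzr1 and Fbxo5 had 0.12, -0.07 and 0.08. Of 8 relatives of the members that cells outside the cycle also express, 4 fell by small amounts and none rose. Cdk16 had -0.56 (SE 0.09, adjusted p = 0.00202), Birc2 -0.42 (SE 0.08, adjusted p = 0.00939), Ccny -0.32 (SE 0.07, adjusted p = 0.0181) and Cdk5, the neuronal CDK, -0.30 (SE 0.06, adjusted p = 0.00991). Top2b, the topoisomerase of neurons, had -0.31 (SE 0.09, adjusted p = 0.0523), and Ccnl1, Birc3 and Birc6 had 0.02, 0.11 and -0.15.

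Markers of cell types that can divide in the young brain were read in the same supernatants, where 5.6% of all genes tested fell and 4.16% rose. Markers of committed oligodendrocyte precursors fell in 5 of 8 cases (Gpr17, Enpp6, Bcas1, Lims2 and Fyn), with summed levels of 232 to 292 CPM in adult and 394 to 472 CPM in young pools. Gpr17 fell to 11.7 ± 2.21 CPM in adult pools, against 33.9 ± 6.42 CPM in young pools (log2 fold change -1.60, SE 0.13, edgeR adjusted p = 1.776e-05). Of 9 measured markers of oligodendrocyte precursors, 3 fell (Olig1, Olig2 and Neu4). The sums of this list were 344 to 529 CPM in adult and 532 to 699 CPM in young pools. Among its other markers, Pdgfra and Cspg4 were not called, with log2 fold changes of 0.03 (SE 0.22) and 0.12 (SE 0.22). Fabp7 (-1.06) and Prom1 (-2.13) fell among 12 tested markers of progenitors, tanycytes and ependyma, whose sums overlapped (265 to 415 CPM in adult and 291 to 520 CPM in young pools). Of 10 measured microglia markers 2 rose (Trem2 and C1qa). The sums over this list overlapped, at 62.1 to 119 CPM in adult and 52.6 to 94.8 CPM in young pools. Of 10 endothelium and pericyte markers 1 fell, and their sums were 15.3 to 39.1 CPM in adult and 16.9 to 59.0 CPM in young pools. Meningeal markers were uneven, at 374 to 4410 CPM in adult and 67.1 to 1650 CPM in young pools, and none of 10 was called. Elsewhere 3 of 12 immature neuron markers and 3 of 10 mature oligodendrocyte markers fell, 1 of 8 astrocyte markers and 2 of 10 preoptic markers rose, and of 7 neuron markers 2 fell and 1 rose. Of 5 measured blood markers, 1 was tested, and it fell. Among the markers of the dividing cell types and meninges, Rax and Cdh5 had no count in at least 1 young pool. The part of these cell types in the fall of Ccnb1, Cdk1 and Top2a was not tested.

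The genes whose level followed the summed CPM of the 9 members most closely over the 10 second-set supernatants were not in the cell cycle lists, and Bmp4 is in the committed precursor list. Among them were Mrpl36 (Pearson r = 0.929), Fam195a (0.904), Sh3glb1 (0.903), Rftn2 (0.901), Crybb1 (0.899), Rab34 (0.892), Bmp4 (0.888), Bbc3 (0.888) and Pigy (0.886), out of 12792 genes compared. Ccna2 is the largest part of the sum, and the points share age and library depth, so the order is a description of these libraries.

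The second comparison set the pull-down against the supernatant of the 5 negative pools, where no ribosome carries GFP. Ccnb1 fell in the IP in the main fit, which had no block for the pool, and the other 7 members tested were not called. 4 members were patchy in the pull-down: Bub1 had no count in any of the 6 IP libraries, Cdk1 none in 4, and Ccnb1 and Top2a none in 3 each. In the 14 supernatants Bub1 also had no count in 5 and Top2a none in 1, while Cdk1 and Ccnb1 had counts in all. The IP libraries also held fewer genes with a count, 15120 to 16002, against 17078 to 17720 in supernatants, and resembled each other less (r = 0.88 to 0.92 over 15 pairs, against 0.949 to 0.99 over 91 supernatant pairs, on the log2(CPM + 0.5) scale). The part of this difference between the fractions in the zeros was not tested.

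Ccnb1 had 4 and 0 counts in adult negative IP 1 and 2 and 0, 3 and 1 in young negative IP 1 to 3 (0.116, 0, 0, 0.0816 and 0.0207 CPM). The supernatants of the same pools had 19 and 8 counts in adult and 23, 60 and 62 in young pools (0.376, 0.244, 0.784, 1.53 and 1.88 CPM). Each IP value lay below each supernatant value. Summed over the 5 pools, 8 counts in the IP stood against 172 in the supernatant, a level 24-fold lower in the IP (95% interval from counting alone 11.9 to 56.4). The log2 fold change was -3.93 (SE 1.20, edgeR adjusted p = 0.0289), and with the pool as a block it was -4.53 with an adjusted p = 0.0588. It was -5.43 in the young pools (SE 1.59, adjusted p = 0.0282), where 27.1% of genes were called and 14.1% fell, and in the adult pools it was -2.43 (SE 1.73, adjusted p = 0.439), where 10.9% of genes and no member were called. The adjusted p was above 0.05 without any one of the 5 supernatants (0.0505 to 0.0886) and without adult negative IP 2 (0.0607).

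In all, 1 of the 9 members fell and none rose, where 16.2% of 16361 genes fell in the IP, 15.8% rose and 32.1% were called. The same member had no overlap between the fractions, as did 9.88% of the genes tested in that direction. With library totals alone the median of all genes moved up by 0.12 (log2) and 59.9% of called genes were higher in the IP, against 49.4% with TMM scaling, while Ccnb1 still fell (-3.83, edgeR adjusted p = 0.0321).

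For Top2a and Birc5 a single young pull-down decided the value, and for Cdk1 leaving out 1 young pull-down moved the call. Cdk1 had 0 counts in both adult negative IP libraries and 116, 0 and 60 in young negative IP 1 to 3 (2.34, 0 and 1.24 CPM), so 2 young libraries held all of its reads. The log2 fold change of IP over supernatant was -3.87 (SE 1.44, edgeR adjusted p = 0.0684), and it was called without young negative IP 2, the young library at 0 (-3.58, adjusted p = 0.0111). In the adult negative pools 0 counts stood against 41, at least 11.7-fold lower in the IP with 3 counts over the group as the limit. Top2a had 0 and 1 counts in adult negative IP 1 and 2 and 0, 0 and 38 in young negative IP 1 to 3, and its log2 fold change of -2.85 (SE 1.5, adjusted p = 0.186) became -5.98 (adjusted p = 0.00455) without young negative IP 3. Birc5 had 13 and 19 counts in adult and 307, 45 and 9 in young negative IP libraries (0.378, 0.512, 6.18, 1.22 and 0.186 CPM). Its log2 fold change of -1.22 (SE 0.84, adjusted p = 0.320) became -2.15 (adjusted p = 0.0423) without young negative IP 1.

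The other members were read in every pull-down. Mki67 had 1.02 and 0.647 CPM in adult negative IP (35 and 24 counts) and 1.95, 2.67 and 0.808 CPM in young negative IP (97, 98 and 39 counts), a log2 fold change over supernatant of 1.11 (SE 0.75, edgeR adjusted p = 0.309). Ccna2 had 11.1 and 18.2 CPM in adult and 9.41, 5.47 and 6.13 CPM in young negative IP (0.21, SE 0.28, adjusted p = 0.642), beside Exosc9 at 50.1 and 77.6 CPM in adult and 32.6, 28.4 and 30.5 CPM in young negative IP. Cenpf (-0.44, SE 0.63, adjusted p = 0.661) and Tpx2 (0.72, SE 0.58, adjusted p = 0.405) were not called. Bub1 had 0 counts in the negative IP against 28 in the negative supernatants, at least 10.4-fold lower with 3 counts over the group as the limit, and 19 of those 28 came from adult negative supernatant 1.

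Between the ages within the negative IP no member was called, where 0.727% of genes were. Ccna2 had a log2 fold change of adult over young of 1.07 (SE 0.40, edgeR adjusted p = 0.194). Cdk1 had no adult count against 116, 0 and 60 young counts (adjusted p = 0.150), and Birc5 had -2.49 (SE 1.3, adjusted p = 0.349). The age by fraction term was called for no member and for 0% of all genes by edgeR, with 1068 of 16361 genes at an unadjusted p under 0.05, while DESeq2 called 118 and limma voom 0.

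Over all 16361 genes tested in the negative IP, 16.2% fell and 15.8% rose, with a median log2 fold change of -0.03. Of the other lists, 7 of 41 tested G2 and mitosis genes fell and none rose (median -0.42). Among S phase genes, 2 of 38 fell and 2 rose (median -0.19). Among the 8 relatives of the members in cells outside the cycle, 3 rose and 1 fell (median 0.35).

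The GFP-positive IP, enriched for RNA on ribosomes of GnRH neurons, was a single library. It had 0 counts of Ccnb1, Cdk1 and Bub1 and 2 of Top2a (0.0420 CPM), against 5, 4, 0 and 10 counts in the supernatant of the same pool. Cdk1 also had 0 counts in both adult negative IP libraries. It was tested against them below but could not be called. Mki67 had 34 counts in the IP and 20 in the supernatant (0.714 and 0.721 CPM), Birc5 49 and 74 (1.03 and 2.67 CPM), and Tpx2 54 and 40 (1.13 and 1.44 CPM). Ccna2 had 400 counts in the IP and 169 in the supernatant (8.4 and 6.09 CPM). Cenpf had 164 counts in the IP and 43 in the supernatant (3.45 and 1.55 CPM), 2.22-fold higher in the IP, and this was the highest Cenpf level of the 20 libraries. Against the 2 adult negative IP libraries, with 0.901 and 1.24 CPM, Cenpf had a log2 fold change of 1.77 (SE 1.90, edgeR adjusted p = 0.97). None of the 7 members tested was called in this comparison, where 0.00603% of 16586 genes were, and the spread of this 1 library was taken from the negative IP libraries.

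**Figure D4:**
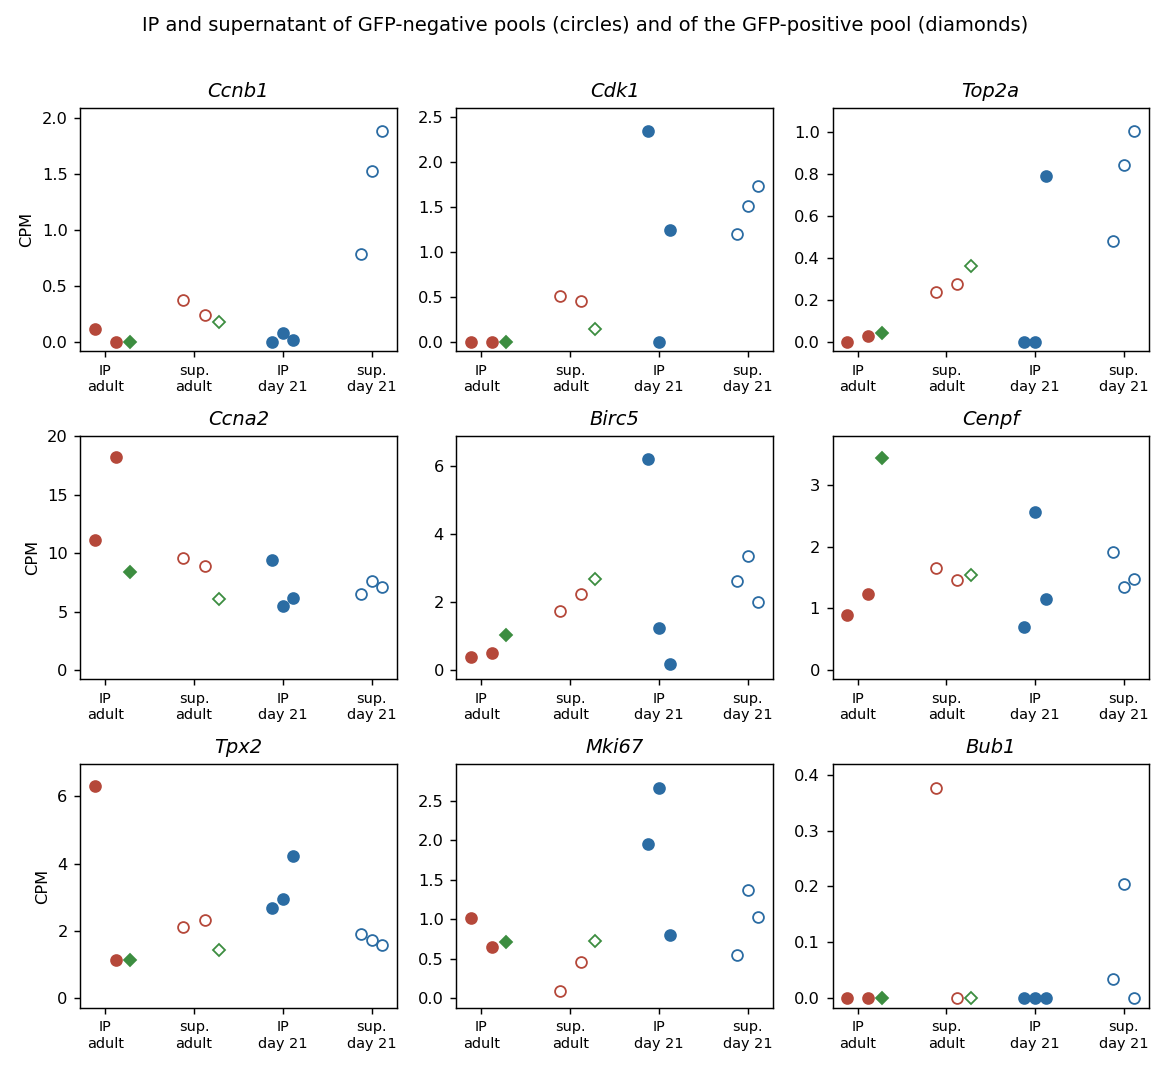
Level (CPM) of the 9 genes in the pull-down (filled) and supernatant (sup., open) of the adult and day 21 negative pools (circles) and of the adult GFP-positive pool (diamonds). Ccnb1 lies between 0 and 0.116 CPM in the negative IP and between 0.244 and 1.88 CPM in the negative supernatants, and Bub1 is at 0 in all 6 IP libraries.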

How the data were processed

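The authors deposited read counts per gene for 20 libraries of polyA RNA from preoptic punches. Per the labels' protocols, RNA was isolated with a micro kit and amplified with SMARTer v4. Build mm10 is named in the submitters' processing notes, beside HTSeq 0.6.1, TopHat2 2.0.13 with Bowtie2 2.2.1, DESeq2 1.14.1, FastQC 0.11.3, and Cuffdiff 2.1.1 of Cufflinks. What each did, the annotation and the strand setting are not given in the sources used here.

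From the deposited counts, CPM was computed with the library total and no TMM factor. Differences were tested on the counts with edgeR 4.0.16 (quasi-likelihood, TMM scaling, genes kept by filterByExpr with a minimum count of 10, Benjamini-Hochberg adjustment over all genes tested, threshold 0.05) in R 4.3.3. DESeq2 1.42.0 and limma 3.58.1 (voom) were alternatives, beside other scaling, no filter, a replicate block and each library left out. The fit of supernatants had terms for age and pool origin. Log2 fold changes come from these fits. The fits were also run on simulated data, with changes set only in genes of higher mean level than Ccnb1, Cdk1 and Top2a. That run does not cover calls at counts as low as theirs. Replicates of a group are separate pools, so p-values measure the spread between pools, except in the comparison of the sets. There the pool was a block, and p-values measure the spread between repeat libraries of the same RNA. In the main fit of negative IP over supernatant, both fractions of a pool entered as separate libraries, so its p-values ignore that pairing. With the pool as a block, an alternative, no member was called there. The GFP-positive IP was a single library, with its spread taken from the negative IP libraries. No 2 libraries were identical.

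Genes are located in GENCODE vM21 (GRCm38). The members and lists were chosen with earlier results of these data known. Named are the members, list genes that passed the age test (at most the 6 with the lowest p per list), lists of 10 or fewer genes in full, and the 10 genes of mean CPM of at least 1 whose log2(CPM + 0.1) correlated best with the members' sum. Some results that this rule would name are not reported here. IP and supernatant of a negative pool carry the same number in the sample titles, which were followed. The descriptions of the adult negative supernatants carry other numbers. Deviations from group means correlated with r = 0.151 to 0.359 between the fractions of a young pool. In the adult groups, with 2 libraries each, deviations mirror each other, so both pools gave 0.142 and the other pairing -0.142. Fits of the IP with the pool as a block rest on the titles. Intervals and limits for zeros cover counting error only.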

Additional observations from a re-analysis of the deposited data

Results flagged for a closer look

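Within groups of 5 libraries, 4 of the 30 groups checked had 1 library far from the others. The rate of about 1 in 20 groups for this check assumes normally distributed values, so it does not hold for low counts such as these. Bub1 in the negative IP was at 0 throughout and could not be flagged, and the members' sums were among the groups. In the adult supernatants, Bub1 stood at 0.376 CPM (19 counts) in adult negative supernatant 1, and the nearest other adult pool had 0.0304 CPM. The other 3 were in the negative IP libraries. Top2a stood at 0.787 CPM (38 counts) in young negative IP 3, with the next at 0.0269 CPM. Birc5 stood at 6.18 CPM (307 counts) in young negative IP 1, with the next at 1.22 CPM. Cenpf stood at 2.56 CPM (94 counts) in young negative IP 2, with the next at 1.24 CPM. The libraries differ from gene to gene, and each is among those left out in turn.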

How the results depend on the processing

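The counts of these genes are low, and a change of a few reads moves a value. Of the member values under settings other than leaving out 1 library, 234 kept direction and side of the threshold, 6 lost and 5 gained a call, and 4 changed sign without being called. The changes of sign were Ccna2 (-0.03) and Tpx2 (-0.03) with age when first-set libraries stood for the prior pools, Tpx2 (-0.23) within prior pools from the first set alone, and Top2a (-0.18) between sets with limma voom. For Top2a with age, the adjusted p was 0.0599 with no filter and 0.0516 with no term for pool origin.

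Adult over young supernatant gave 655 genes with no origin term. Replicate numbers do not pair pools of different ages, and with the replicate block it gave 939 genes and an adjusted p of 0.0805 for Top2a. Without the GFP-positive supernatant 1 member was called. New pools gave 1364 genes with DESeq2, with 1 (no filter), 2 (DESeq2) and 1 (voom) members called. Prior pools gave 35 genes with library totals, 88 with no filter, 372 with DESeq2 and 28 from the first set alone, a setting chosen after seeing the data. New minus prior gave 2 (no filter), 9 (DESeq2) and 0 (voom) genes. Negative IP over supernatant called 2 members with DESeq2 and 0 with the replicate block, as did the young pools with the block (0). The adult pools gave 2897 genes and 1 member with DESeq2. Adult over young IP gave 1284 genes and 1 member with DESeq2, and 59 genes with voom. Age by fraction gave 118 genes and the GFP-positive IP 210 with DESeq2, and the sets gave 2292 with no replicate block. With the pool block on the IP, no other member call changed.

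Leaving out 1 library at a time gave 731 to 1723 genes for adult over young supernatant, 100 to 910 for new and 3 to 253 for prior pools, and 1 to 9 for their difference. It gave 3571 to 5725 for negative IP over supernatant, 2842 to 4856 in young and 285 to 2398 in adult pools. It gave 0 to 458 for adult over young IP, 0 to 67 for age by fraction, 3700 to 4783 between sets and 0 to 1 for the GFP-positive IP, which has no value without its only library. Members called ran from 1 to 3 with age, 0 to 2 for negative IP, 0 to 1 for new pools, young pools, adult pools and adult over young IP, and 0 to 0 for the rest. Values that crossed 0 were Ccna2 with age (-0.01 to 0.15), in prior pools (-0.13 to 0.02) and between sets (-0.16 to 0.05), Cenpf in new pools (-0.18 to 0.09) and between sets (-0.14 to 0.22), Mki67 in prior pools (-2.17 to 0.19), Tpx2 in new pools (-0.02 to 0.29) and the negative IP (-0.15 to 1.10), and Top2a between sets (-0.48 to 0.82). Where no value shows it, the cause was not tested.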
